A study of Mus musculus with 3 samples.

Results

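Receptors for GABA, glycine and glutamate are built from subunits that are each encoded by a gene of their own, and 38 such genes were followed here. The 3 cell populations were sorted for or against Lhx6-GFP, a reporter of neurons that arise from the medial ganglionic eminence (MGE), interneurons among them. The genes were taken by receptor class, and every array feature whose RefSeq transcript belonged to one of them was used, which gave 57 of the 26582 array features with a gene name and 38 of the 20145 genes named on the arrays. They comprised 11 genes for GABAA receptor subunits, 2 for the GABAB receptor, 4 for glycine receptors, 4 for AMPA, 5 for kainate and 6 for NMDA receptor subunits, and 6 for metabotropic glutamate (mGlu) receptors. Subunit genes outside this list were not analysed here.

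RNA was measured on 3 one-color arrays, 1 for each population. Lhx6-GFP+ cells and Lhx6-GFP- cells, here ES-GFP+ and ES-GFP-, were sorted by fluorescence from aggregates of the mouse ES cell line J14 (129S4/SvJae, male) on day 12 of a protocol that steers ES cells toward MGE fates, with the Wnt inhibitor Dkk-1 at 100 ng/ml and, from day 3, the hedgehog agonist SAG at 6 nM. Both sorted fractions carried the same 2 transgenes, a Lhx6-GFP BAC, in which regulatory DNA of *Lhx6* drives GFP, and, per the labels, a 692-mCherry enhancer reporter brought in by virus. J14 is 1 cell line and the aggregates were pooled before sorting, so the ES populations stand for 1 line and 1 pooled culture. MGE-GFP+ cells were sorted from the dissected MGE of E12.5 embryos carrying the Lhx6-GFP BAC on a CD1 background and labeled female, with no culture and no Dkk-1 or SAG. By the study's methods the ES aggregates were dissociated with a neural tissue enzyme kit and Rock inhibitor, the MGE with trypsin and DNase I. Strain, sex, culture, origin, dissociation and the 692-mCherry reporter therefore differ together between MGE-GFP+ and both ES populations. They cannot be told apart in any comparison with MGE-GFP+. With 1 array per population there is no replicate error, and no p-value was computed.

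GABAA and glycine receptors are pentameric chloride channels. In the embryo, where intracellular chloride is high, they can depolarize young neurons, and GABA acting through them is known to influence the migration of interneurons that leave the MGE. AMPA, kainate and NMDA receptors are tetrameric cation channels opened by glutamate, whereas GABAB and mGlu receptors signal through G proteins. Several subunits are replaced during development, for example glycine receptor α2 and NMDA receptor GluN2B, which are known as embryonic forms.

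A level is the log2 intensity of a gene, averaged over its array features, minus the 75th percentile of its array, so that 0 lies at that percentile and 1 unit is a 2-fold step. Levels are compared between arrays for the same gene only. Spike-in and adenovirus control features, which match no mouse transcript, gave an upper limit for signal of this kind, and a gene was taken as measured on an array where its mean over features exceeded the 95th percentile of these 106 features. That limit lay at an intensity of 208 for ES-GFP-, 377 for ES-GFP+ and 152 for MGE-GFP+ cells, or at levels of -2.02, -0.99 and -1.92, so a dim gene had more to exceed in ES-GFP+ cells. Differences are given relative to the median of all genes tested in that comparison, a gene being tested where it exceeded the control range on at least 1 of the 2 arrays. A difference of at least 2-fold was called. Repeat spots of the same feature gave an SD of 0.2 for a log2 difference, which covers the array surface and not cultures, embryos, sorts or amplifications.

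Of the 38 genes, 20 exceeded the control range on at least 1 array and 12 on all 3. In each population 15 (ES-GFP-), 14 (ES-GFP+) and 18 (MGE-GFP+) did so, that is 39.5%, 36.8% and 47.4% of them, beside 54.8%, 43.7% and 49.7% of all named genes. The AMPA receptor genes were all measured on at least 1 array, as were 4 of the 5 kainate receptor genes, whereas 7 of the 11 GABAA and 3 of the 4 glycine receptor genes were within the control range on every array. These counts use the mean over the features of a gene. Of the 18 genes within the control range on all arrays, 4 had a single feature or more above it (*Gabrg3*, *Gabbr2*, *Glra1* and *Grm5*) and 14 had none.

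**Figure D1:**
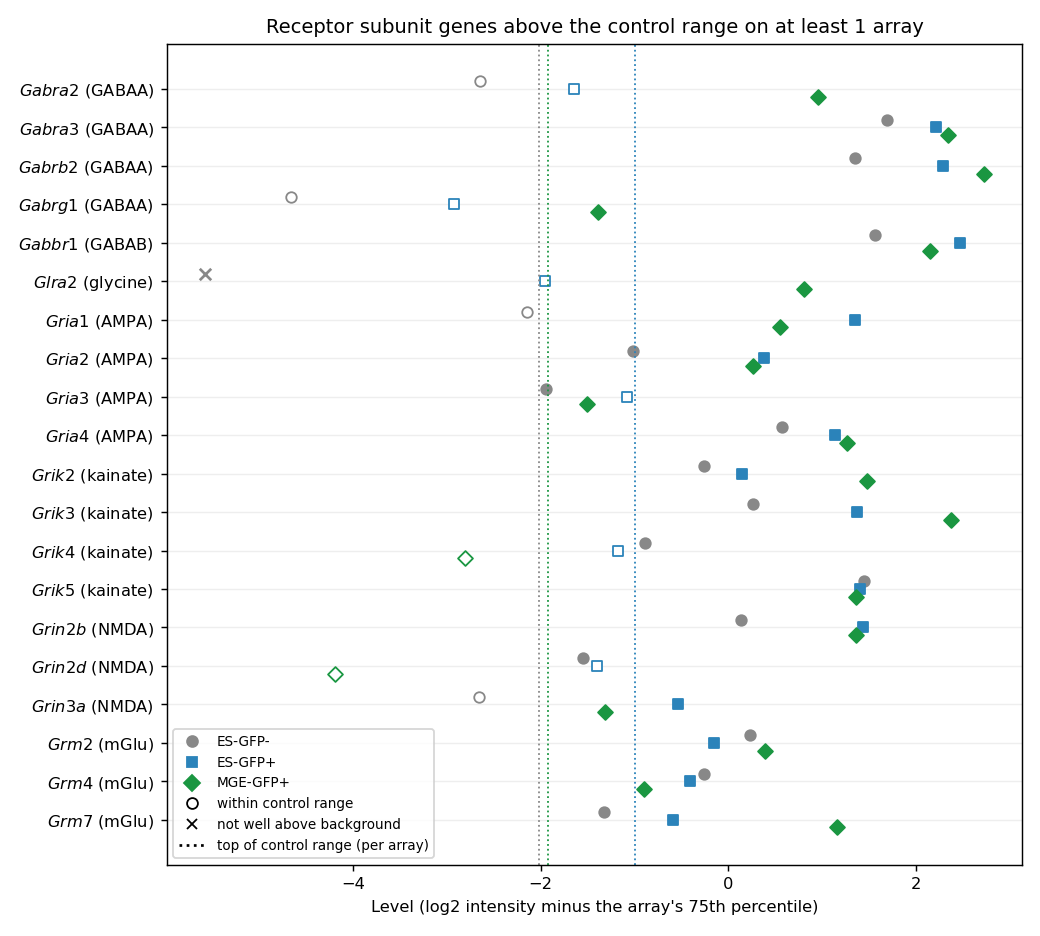
Levels of the 20 receptor subunit genes that exceeded the control range on at least 1 array (x axis: log2 intensity minus the 75th percentile of the array; 1 symbol per population, with 1 array each and no error bar). Filled symbols exceed the control range of their array (dotted lines at -2.02, -1.92 and -0.99), open symbols do not, and the cross marks a gene not well above background. *Gabra2*, *Gabrg1* and *Glra2* exceed the control range in MGE-GFP+ cells only, *Gria1* and *Grin3a* in both GFP+ populations and not in ES-GFP- cells.

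Among the receptors for inhibitory transmitters, 3 genes exceeded the control range on the MGE-GFP+ array alone. The limit there (-1.92) was lower than on the ES-GFP+ array (-0.99), and *Gabrg1* at -1.39 in MGE-GFP+ cells lay between them. *Glra2*, which encodes the glycine receptor α2 subunit, was not well above background in ES-GFP- cells (floor of the array -5.57), had a level of -1.95 in ES-GFP+ cells and reached 0.81 in MGE-GFP+ cells. The MGE-GFP+ level was at least 79.5-fold that of ES-GFP- cells, measured against that floor, and 6.19-fold that of ES-GFP+ cells. With the floor set at the control range in place of the dimmest detected feature, these differences were 2.76 and 1.68 on the log2 scale. Of the other glycine receptor genes, *Glra1* and *Glra3* (α1 and α3) and *Glrb*, the β subunit that binds the scaffold gephyrin, were within the control range in their means, though 1 of the 2 features of *Glra1* exceeded it in ES-GFP- cells (intensity 214).

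*Gabra2*, the GABAA receptor α2 subunit of the embryonic and young forebrain, stood at -2.64 in ES-GFP-, -1.64 in ES-GFP+ and 0.96 in MGE-GFP+ cells. It was 11.6-fold higher in MGE-GFP+ than in ES-GFP- cells and 5.58-fold higher than in ES-GFP+ cells, or 2.92 and 1.84 on the log2 scale with the floor at the control range. *Gabrg1*, a γ subunit, was dimmer but followed the same order, with levels of -4.66, -2.92 and -1.39. Its level was 9.22-fold higher in MGE-GFP+ than in ES-GFP- cells and 2.64-fold higher than in ES-GFP+ cells, and both of its array features were higher (log2 differences of 3.37 and 3.04 against ES-GFP- cells). Against a floor at the control range the first difference was 0.56 on the log2 scale, under 2-fold, and the second could not be given. After the normexp background correction the second was 0.96.

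The other measured GABA receptor genes exceeded the control range in all 3 populations and differed less. *Gabrb2*, the β2 subunit, had levels of 1.35, 2.29 and 2.72, and only the contrast of MGE-GFP+ with ES-GFP- cells passed 2-fold, at 2.47-fold. *Gabra3*, the α3 subunit, had levels of 1.69, 2.21 and 2.34, and no contrast passed 2-fold. Its 2 array features differed in the contrast between the ES populations, at 1.06 and -0.04. *Gabbr1*, the GABAB subunit that binds GABA, had levels of 1.56, 2.47 and 2.15 and stayed within 2-fold, while *Gabbr2*, the subunit it needs to reach the cell surface and couple to G proteins, had mean intensities of 158, 161 and 42.3, within the control range on every array. In ES-GFP- cells 2 of its 3 features (231 and 253) exceeded the limit of 208 and the other (67.4) did not.

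The remaining GABAA receptor genes were *Gabra4*, *Gabra5*, *Gabra6*, *Gabrb1*, *Gabrg3*, *Gabrd* and *Gabre*. *Gabra6*, known from cerebellar granule cells, was not well above background on any array. *Gabrd*, the δ subunit of receptors outside synapses, had intensities of 40.3, 220 and 32.6 and so was brightest in ES-GFP+ cells, below the limit of 377 there.

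The 3 genes that exceeded the control range in MGE-GFP+ cells alone have a RefSeq promoter window here. The 250 bases before each start are shown so that the sequences can be compared. Other receptor genes, *Grik3* and *Grm7* among them, had the same order of levels, and their sequences are not shown. *Gabrg1* lies at chr5:70842618-70842867, *Gabra2* at chr5:71095850-71096099 and *Glra2* at chrX:165327394-165327643, all on the minus strand of GRCm38.p6, read 5′ to 3′ with any TAATTA in capitals, a core that many homeodomain proteins can bind.
Gabrg1: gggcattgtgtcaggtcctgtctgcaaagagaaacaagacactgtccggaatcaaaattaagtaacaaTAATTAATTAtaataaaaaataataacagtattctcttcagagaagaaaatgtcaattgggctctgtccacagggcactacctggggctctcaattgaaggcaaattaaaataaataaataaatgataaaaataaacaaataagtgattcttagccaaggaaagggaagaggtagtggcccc
Gabra2: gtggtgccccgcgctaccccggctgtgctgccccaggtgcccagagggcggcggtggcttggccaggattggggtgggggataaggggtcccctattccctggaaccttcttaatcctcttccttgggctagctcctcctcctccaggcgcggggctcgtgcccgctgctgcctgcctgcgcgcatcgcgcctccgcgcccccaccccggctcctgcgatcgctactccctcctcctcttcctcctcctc
Glra2: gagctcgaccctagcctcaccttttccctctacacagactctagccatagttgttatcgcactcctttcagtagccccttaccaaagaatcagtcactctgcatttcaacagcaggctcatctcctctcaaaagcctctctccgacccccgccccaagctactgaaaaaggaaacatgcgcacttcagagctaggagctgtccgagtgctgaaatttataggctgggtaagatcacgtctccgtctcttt
The G and C share of these stretches was 35.6% in *Gabrg1*, 70.0% in *Gabra2* and 50.4% in *Glra2*. Windows of 300 bases, which add 50 bases after the start, were given for 28 of the 38 genes. TAATTA, which reads the same on both strands, was found in the window of 1 of the 28, *Gabrg1*, at 2 overlapping places, and in those of 6.12% of all genes. The letters TTCAGCACC, 1 arm of the RE1 element, were searched on both strands as well and occurred in 1 of the 28, *Grm2*, against 0.433% of all genes. A match of letters is a description and not a binding site.

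*Gabrg1* and *Gabra2* are also neighbors, with 0 protein-coding genes between them in the RefSeq order of chromosome 5, and *Gabra4* and *Gabrb1* follow after 1 more gene. The intensities of *Gabra4* were at the array floor of 17.8 in ES-GFP-, 28.0 in ES-GFP+ and 45.9 in MGE-GFP+ cells, and those of *Gabrb1* 171, 127 and 84.6, all within the control range.

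Among glutamate receptors, the AMPA receptor gene *Gria1* (GluA1) separated the GFP+ from the GFP- population most widely of the 17 receptor genes tested between the ES populations. Its levels were -2.14 in ES-GFP-, 1.35 in ES-GFP+ and 0.55 in MGE-GFP+ cells. It was thus 11.1-fold higher in ES-GFP+ and 6.15-fold higher in MGE-GFP+ than in ES-GFP- cells, and these differences kept over 2-fold in each of 10 alternative ways of processing (3.04 to 3.56 and 2.12 to 2.99 on the log2 scale). The GFP+ populations differed by -0.92 on the log2 scale, under 2-fold, with the lower level in MGE-GFP+ cells.

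*Gria2* encodes GluA2, the subunit that keeps AMPA receptors from passing calcium once its transcript is edited. Levels were -1.02, 0.38 and 0.26, which is 2.62-fold higher in ES-GFP+ and 2.32-fold higher in MGE-GFP+ than in ES-GFP- cells. The first value was 0.96 on the log2 scale both with the 50th percentile without centring and in the deposited values. The second was under 2-fold in 5 of 10 alternatives, at 0.87 on the log2 scale with the brightest feature, 0.51 with the floor at the control range, 0.92 in the deposited values, 0.95 with normexp and 0.99 with no background subtracted. *Gria4* (GluA4), with levels of 0.57, 1.14 and 1.26, and *Gria3* (GluA3), with -1.94, -1.08 and -1.5, stayed within 2-fold in all 3 contrasts. The mean of *Gria3* was within the control range in ES-GFP+ cells, although 1 of its 2 features, at an intensity of 1040, exceeded it.

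The kainate receptor genes went in both directions. *Grik3* (GluK3) had levels of 0.26, 1.37 and 2.37 and was 2.14-fold higher in ES-GFP+ and 4.12-fold higher in MGE-GFP+ than in ES-GFP- cells. The first value was 0.66 and 0.84 on the log2 scale under 2 alternatives, the 50th percentile without centring and no control filter. *Grik2* (GluK2) was near equal in the ES populations, at -0.26 and 0.15, and reached 1.48 in MGE-GFP+ cells, 3.19-fold above ES-GFP- and 2.31-fold above ES-GFP+ cells. *Grik4* (GluK4), a subunit that needs one of GluK1 to GluK3 to form a channel, ran the other way. Its levels were -0.89, -1.18 and -2.81, 3.97-fold lower in MGE-GFP+ than in ES-GFP- cells, or -1.10 on the log2 scale with the floor at the control range. *Grik5* (GluK5), of the same kind, was level at 1.45, 1.40 and 1.36. *Grik1* was within the control range on all arrays.

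NMDA receptors combine GluN1 with GluN2 or GluN3 subunits. *Grin3a*, the glycine-binding GluN3A subunit that lowers calcium entry, had levels of -2.66, -0.54 and -1.31 and was 4.31-fold higher in ES-GFP+ and 2.44-fold higher in MGE-GFP+ than in ES-GFP- cells. With the floor at the control range these values were 1.47 and 0.65 on the log2 scale. *Grin2d* (GluN2D) had nearly the same intensity in the ES populations, 288 and 283, and 31.5 in MGE-GFP+ cells, where it was within the control range. The level in MGE-GFP+ cells was 6.53-fold below that in ES-GFP- cells, a difference of -0.44 on the log2 scale when the floor was set at the control range.

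*Grin2b*, which encodes the embryonic subunit GluN2B, had mean levels of 0.14, 1.44 and 1.36, 2.45-fold higher in ES-GFP+ and 2.23-fold higher in MGE-GFP+ than in ES-GFP- cells, but its 2 array features disagreed. The dimmer one had intensities of 284, 1660 and 872, a log2 difference of 2.71 between the ES populations. The brighter one had 3030, 2480 and 2510, a difference of -0.13. Both carry the same RefSeq transcript, and with the brighter feature alone the sign of the contrast between the ES populations turned. *Grin1*, the subunit that every NMDA receptor contains, was well above background on all arrays but within the control range, with intensities of 123, 167 and 74.2. *Grin2a* and *Grin2c*, known mainly from postnatal brain, were within it too.

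Of the mGlu receptors, 3 were measured in all populations. *Grm7*, a presynaptic group III receptor, had levels of -1.32, -0.59 and 1.16 and was 5.32-fold higher in MGE-GFP+ than in ES-GFP- cells and 3.09-fold higher than in ES-GFP+ cells. *Grm2* (group II) stayed at 0.23, -0.15 and 0.39, and *Grm4* (group III) at -0.26, -0.41 and -0.90, both within 2-fold. The features of *Grm4* differed in the contrast between the ES populations, at 0.57 and -0.89. *Grm3* and *Grm8* were within the control range. So was the mean of *Grm5*, a receptor coupled to phospholipase C, with intensities of 86.0, 249 and 141, but its 3 features differed. The first had intensities of 108, 431 and 277, above the control range in both GFP+ populations, with log2 differences of 2.16 and 1.84 against ES-GFP- cells. The third exceeded it in MGE-GFP+ cells only (166), with differences of 0.38 and 0.44.

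**Figure D2:**
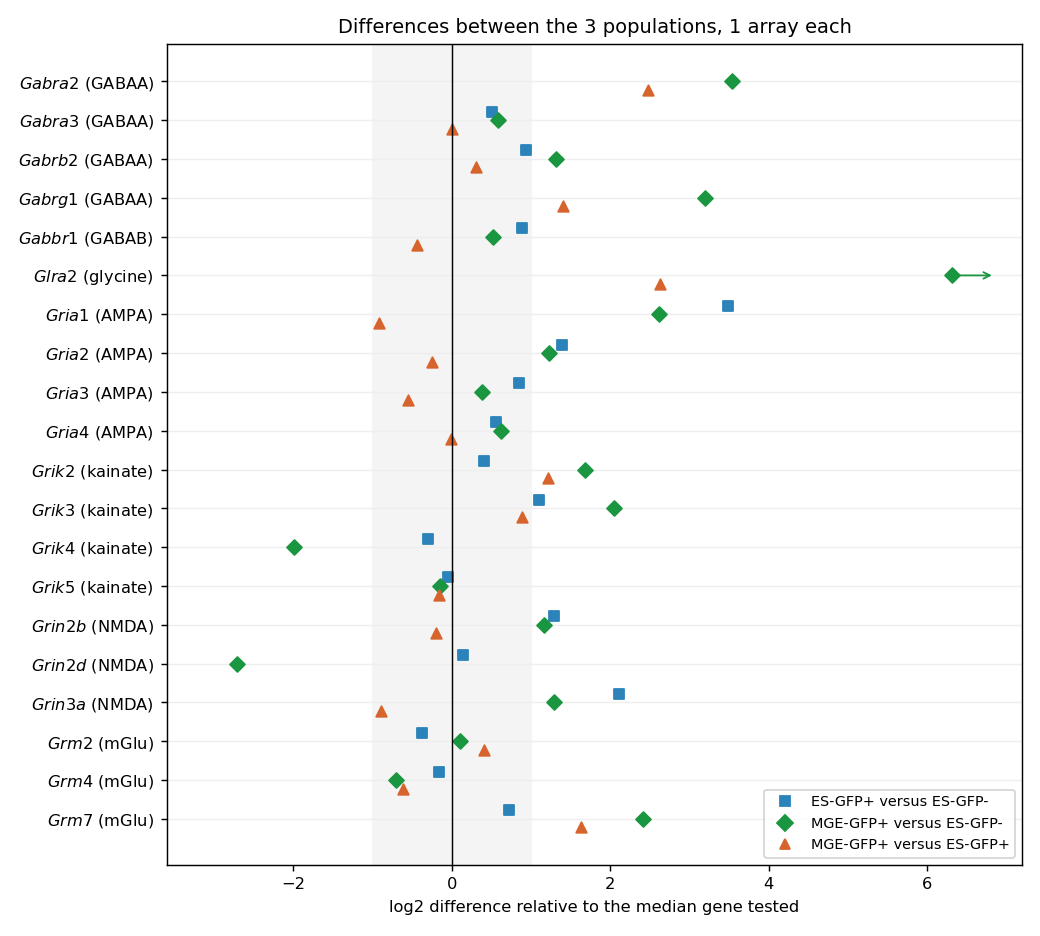
Log2 differences of the same 20 genes relative to the median gene tested, for 3 comparisons of 1 array with 1 array (symbols) and with no error bar. The gray band is the range under 2-fold, the arrow marks a lower bound, and a gene has no symbol where it was within the control range on both arrays. *Glra2*, *Gabra2* and *Gabrg1* lie farthest to the right for MGE-GFP+ against ES-GFP- cells, *Gria1* for ES-GFP+ against ES-GFP- cells, and *Grik4* and *Grin2d* lie to the left.

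The contrast of the ES populations asks what sorting for Lhx6-GFP separated within 1 culture. Of the 17 receptor genes tested, 5 were at least 2-fold higher in ES-GFP+ cells (*Gria1*, *Gria2*, *Grik3*, *Grin2b* and *Grin3a*, all ionotropic glutamate receptors), 0 were lower and 12 were within 2-fold. That is 29.4% higher, where 5.9% of all 11198 genes tested were higher and 9.11% lower. The median log2 difference of the 17 was 0.72, that of all genes being 0 by construction. None of the 3 GABA receptor genes tested passed 2-fold, with log2 differences of 0.51, 0.93 and 0.89 for *Gabra3*, *Gabrb2* and *Gabbr1*. The other GABA and glycine receptor genes were within the control range on both arrays and not tested. Among them, *Glra2* was at least 12.2-fold, *Gabrd* 6.14-fold and *Gabrg1* 3.32-fold higher in ES-GFP+ cells. Without the control filter 11 receptor genes were higher and 1 lower, so the classes called depend on that filter. With intensities scaled to the 50th percentile and no centring, where the median of all genes tested was -0.43, 2 genes were called higher. Among genes above the control range on both arrays, 3 of 12 receptor genes were called higher, beside 5.71% of all such genes.

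Against ES-GFP- cells, MGE-GFP+ cells had 11 of 20 receptor genes at least 2-fold higher and 2 lower, with 7 within 2-fold. These shares of 55.0% and 10.0% stand beside 10.4% and 16.1% of all 11507 genes tested, and the median log2 difference was 1.19. The 11 comprised 4 of 6 genes for GABA and glycine receptors (*Gabra2*, *Gabrb2*, *Gabrg1* and *Glra2*), 6 of 11 for ionotropic glutamate receptors (*Gria1*, *Gria2*, *Grik2*, *Grik3*, *Grin2b* and *Grin3a*) and 1 of 3 for mGlu receptors (*Grm7*). The lower genes were *Grik4* and *Grin2d*. Of the higher genes, *Gabra2*, *Gabrg1*, *Glra2*, *Gria1* and *Grin3a* entered the test only through the MGE-GFP+ array. *Grik4* and *Grin2d* entered it only through the ES-GFP- array. Without the control filter 16 receptor genes were higher and 6 lower, and the median was 0.67. With the floor at the control range the median was 0.56. Among genes above the control range on both arrays, 6 of 13 receptor genes were called higher and 0 lower, beside 9.87% and 7.88% of all such genes.

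The Lhx6-GFP+ populations from the embryo and from culture were compared directly as well. MGE-GFP+ cells were at least 2-fold higher than ES-GFP+ cells in 5 of 18 genes tested (*Gabra2*, *Gabrg1*, *Glra2*, *Grik2* and *Grm7*) and lower in 0, with 13 within 2-fold. Because the limit was higher on the ES-GFP+ array, a dim gene lower in MGE-GFP+ cells could go untested. *Grin2d* and *Grik4*, within the control range on both arrays, were 7.58-fold and 3.39-fold lower in MGE-GFP+ cells. Without the control filter 8 receptor genes were higher and 9 lower. The shares of all 10435 genes tested were 6.4% and 10.8%, against 27.8% of the receptor genes, and the median difference of the receptor genes was 0.0. Of 14 genes above the control range in both populations 2 were called higher, *Grik2* and *Grm7*, and 0 lower, beside 5.1% and 8.39% of all such genes. Scaling to the 50th percentile without centring moved the median of all genes by 0.87 and gave 8 calls. The 3 comparisons share arrays, so their values are set side by side and none is evidence for another.

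**Figure D3:**
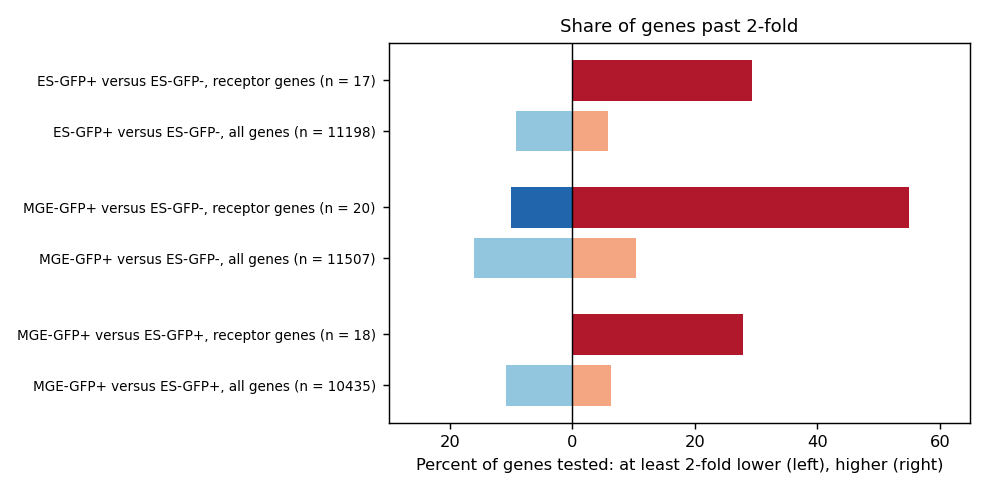
Percentage of genes tested that were at least 2-fold higher (right) or lower (left) in the first-named population, for the receptor subunit genes (dark bars) and all genes tested (light bars). The receptor genes reach 29.4%, 55.0% and 27.8% on the higher side where all genes reach 5.9%, 10.4% and 6.4%, and each bar rests on 2 arrays. Some genes entered a test only through the array where they were higher. Of the receptor genes above the control range on both arrays, 3 of 12, 6 of 13 and 2 of 14 were higher.

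How far the array features of 1 gene agreed was examined for the genes with more than 1. *Grik2*, *Gria4* and *Gria3* had features within 0.1 of each other on the log2 scale in the contrast of MGE-GFP+ with ES-GFP- cells (1.69 and 1.66 for *Grik2*). *Grik3*, *Gabbr1* and *Grin2b* had features more than 1 log2 unit apart there, as the only ones among the measured genes, at 1.5 and 2.59, at 0.01 to 1.23 and at 2.10 and 0.21. Between the ES populations the widest gap of a measured gene was the 2.84 of *Grin2b*.

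**Figure D4:**
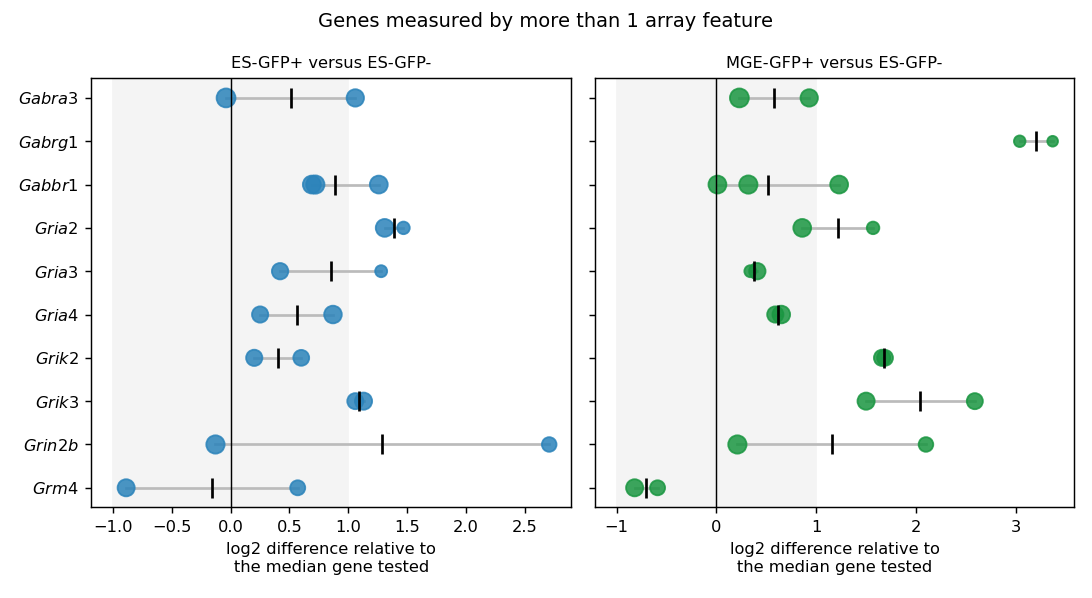
Log2 difference of each array feature (circles, larger where brighter in ES-GFP- cells) and the gene mean (black tick) for tested genes with more than 1 feature, in the contrasts of ES-GFP+ (left) and MGE-GFP+ (right) with ES-GFP- cells. The gray band is the range under 2-fold. The features of *Grin2b* lie 2.84 and 1.89 apart, those of *Grik2* 0.40 and 0.03.

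The genes whose products bind or scaffold these receptors were read from a list of 55, of which 53 were on the arrays. In ES-GFP+ against ES-GFP- cells 6 of 40 tested were higher (15.0%) and 2 lower (5.0%), where the shares over all genes tested were 5.9% and 9.11%. In MGE-GFP+ cells 12 of 44 were higher (27.3%) and 3 lower (6.82%) against ES-GFP- cells, where all genes gave 10.4% and 16.1%. Against ES-GFP+ cells 4 of 42 were higher (9.52%) and 3 lower (7.14%), where all genes gave 6.4% and 10.8%. Several of these genes were within the control range on 1 of the 2 arrays, and where a floor at that range changed a call, the log2 difference with that floor is given.

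The KCTD proteins attach to GABAB receptors and shape their responses. *Kctd12* had levels of -2.05, -0.40 and 1.79 and was 3.14-fold higher in ES-GFP+ and 13.8-fold higher in MGE-GFP+ than in ES-GFP- cells. The study counts *Kctd12* among globus pallidus markers, which it found robustly expressed in MGE-GFP+ cells only. The part of globus pallidus neurons in these differences was not tested. *Kctd8* exceeded the control range in MGE-GFP+ cells only, at 0.50 after -4.81 and -2.53, 38-fold above ES-GFP- and 7.49-fold above ES-GFP+ cells. Both ES levels were within the control range, and with the floor there the log2 differences were 2.45 and 1.38. *Kctd12b* and *Kctd16* were within the control range. The Neto proteins are auxiliary subunits of kainate receptors. *Neto1* had levels of -1.81, 1.40 and 1.91, 9.2-fold and 12.6-fold higher in the 2 GFP+ populations. *Neto2*, at -0.01, 0.37 and 1.22, passed 2-fold only in MGE-GFP+ against ES-GFP- cells (2.23-fold).

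Of 12 AMPA receptor partners tested, *Cacng8*, a TARP that escorts AMPA receptors to the membrane, was 2.27-fold higher and the pentraxin *Nptx2* 2.89-fold lower (-0.78 with the floor) in ES-GFP+ than in ES-GFP- cells. In MGE-GFP+ cells 4 of 12 were higher than in ES-GFP- cells, led by the TARP *Cacng2* (2.67-fold), the auxiliary subunit *Shisa9* (2.37-fold) and the cornichon *Cnih2* (2.31-fold), and *Cacng5* was 2.35-fold lower (-0.51 with the floor). Against ES-GFP+ cells only *Nsf*, an ATPase of membrane fusion that also binds GluA2, was higher (2.44-fold).

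In the list of NMDA receptor and postsynaptic scaffold genes, *Dlgap2* had levels of -2.49, -0.66 and 0.36 and was 3.54-fold and 6.89-fold higher in ES-GFP+ and MGE-GFP+ than in ES-GFP- cells. *Shank2* was highest in ES-GFP+ cells (-0.09, 1.07 and -0.92), 2.22-fold above ES-GFP- cells, with MGE-GFP+ cells 4.33-fold below ES-GFP+ cells. *Dlgap1* (at least 3.96-fold) and *Dlg2* (3.22-fold) were higher in MGE-GFP+ than in ES-GFP- cells, at 0.69 and 0.92 with the floor. *Dlg3* was 2.15-fold higher and the kinase gene *Camk2a* 2.49-fold lower in MGE-GFP+ than in ES-GFP+ cells.

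Of 11 partners of GABAA and glycine receptors, gephyrin (*Gphn*) had levels of -0.93, -0.22 and 0.06 and no contrast passed 2-fold. The palmitoyl transferase *Zdhhc3* was 2.09-fold higher (0.48 with the floor) in ES-GFP+ than in ES-GFP- cells, and *Hap1* was 2.64-fold lower in MGE-GFP+ than in ES-GFP+ cells. The Homer genes that link group I mGlu receptors to the scaffold gave 0 calls among 2 tested. Of the delta receptors and the cerebellins that bind them, *Cbln1* was 3.63-fold lower in ES-GFP+ and 2.84-fold lower in MGE-GFP+ than in ES-GFP- cells, and *Cbln4* was 5.15-fold lower in MGE-GFP+ than in ES-GFP- cells (-0.89 with the floor).

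The labels were checked against markers. *Lhx6* itself had levels of 2.27, 4.90 and 5.67, and all 7 MGE interneuron genes and all 7 GABAergic genes were at least 2-fold higher in ES-GFP+ than in ES-GFP- cells. ES-GFP- cells were not without them, as all 14 exceeded the control range there. Markers of other cells differed between the populations as well. Summed linear levels of 11 radial glia and astroglia genes were 65.3, 13.2 and 15.3 in ES-GFP-, ES-GFP+ and MGE-GFP+ cells, of 6 dividing-cell genes 8.5, 1.23 and 3.62, of 4 oligodendrocyte lineage genes 7.64, 1.07 and 1.18, and of 11 postmitotic neuron genes 281, 349 and 431. The 6 glutamatergic neuron genes summed to 1.95, 1.13 and 1.46 and the 3 glycinergic ones to 2.15, 1.23 and 0.529. *Tbr1*, 1 of the 6, went against its sum and was 4.76-fold higher in MGE-GFP+ than in ES-GFP- cells. *Snap25*, at 7.54, 7.7 and 8.0, had the highest level of the 11 postmitotic neuron genes in each population and weighed most in their sum. Of these 11, 3 were at least 2-fold higher in MGE-GFP+ than in ES-GFP- cells and 1, *Nefl*, was 3.14-fold lower. In ES-GFP+ against ES-GFP- cells 3 were higher and 0 lower. Summed over 4 genes each, microglial genes gave 0.603, 1.17 and 1.09 and endothelial genes 0.527, 0.648 and 0.994. Only 1, 1 and 2 of these microglial genes and 1, 0 and 1 of the endothelial ones exceeded the control range. The hemoglobin gene *Hba-a1* of red blood cells had log2 levels of -0.65, -0.21 and 3.38, highest in MGE-GFP+ cells. The part of these cells in the receptor differences was not tested, and in sorted populations measured as bulk RNA, fewer cells that express a gene and less of its RNA per cell cannot be told apart.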

How the data were processed

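RNA of 3 sorted populations was hybridized to 3 one-color (Cy3) arrays, 1 per population, on 1 slide in 1 scan. The authors deposited, per the file headers, the spot intensity from Agilent Feature Extraction 10.7.3.1 after background subtraction and spatial detrending, with no scaling between arrays; the labels and the study's methods differ on the amplification kit, the array format and this version. The authors also deposited log2 values, whose normalization is not given in the sources used here. Each array's column lay within 0.315 of log2 median spot intensity after quantile normalization, without background subtraction, and its median was 7.68 or 7.69. The direction is that of the intensities and no centring was seen.

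Here log2 background-subtracted intensity minus the array's 75th percentile over features for mouse transcripts was used. Spots with outlier flags (98 to 137 per array) were left out, and repeat spots were averaged. A feature was well above background where the software called it so on at least a 0.5 share of the spots it had (80.3%, 90.6% and 77.1% of 55681 features on the ES-GFP-, ES-GFP+ and MGE-GFP+ arrays), and was otherwise raised to the lowest detected value of that array, which makes a fold a lower bound. Genes were named through RefSeq transcript accessions (GRCm38.p6 gene table, used for names and order only, since the design of the arrays is on mm9), and promoter sequences are those of RefSeq. The control range came from 10 E1A and 96 ERCC features. All 38 genes were to be named, with values for those above the control range, and of the partner lists the genes past 2-fold, at most 3 in each direction per class. The members and lists were chosen with earlier results of these data known. The calculation was tested on simulated data. The 10 alternatives were no centring, the 50th percentile without centring, quantile normalization, normexp with an offset of 50 (limma 3.58.1 in R 4.3.3, on median spot signal, since the mean was not among the columns), no background subtraction, the deposited log2 values, the brightest feature, no control filter, a floor at the control range, and outlier spots kept. The number of arrays limits the precision. Python 3.11.15, numpy 2.4.6 and pandas 2.3.3 were used.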

Additional observations from a re-analysis of the deposited data

How the results depend on the processing

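The 23 called differences of receptor genes had 229 values over 10 alternatives, of which 213 kept 2-fold, 15 kept the direction but not 2-fold and 1 reversed, *Grin2b* in ES-GFP+ against ES-GFP- cells at -0.10 with the brightest feature. For ES-GFP+ against ES-GFP- cells, the 50th percentile without centring gave 2 higher genes and a median of 0.28, the brightest feature a median of 0.45, and no control filter 11 higher and 1 lower. For MGE-GFP+ against ES-GFP- cells, the median was 1.55 with the 50th percentile without centring, 0.96 with the deposited values, 0.67 without the control filter and 0.56 with the floor at the control range, and the number of lower genes was 4 with the brightest feature, 6 without the filter and 1 with that floor. For MGE-GFP+ against ES-GFP+ cells, the 50th percentile without centring gave 8 higher genes and a median of 0.87, no filter gave 8 higher and 9 lower, and 1 gene was lower with quantile normalization, normexp, no background subtraction and the deposited values. The 50th percentile values differ through the shift of all genes, the others for causes that were not tested. No paired analysis was possible because each population has 1 array, and no array could be left out. The 18 of 38 genes whose means were within the control range on all arrays are limited by that range and not shown to be absent. Of these 18, 13 (ES-GFP-), 17 (ES-GFP+) and 14 (MGE-GFP+) had a feature well above background. A single feature or more exceeded the control range in 4 of them.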
